A study of Homo sapiens with 9 samples.

Results

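The genes described here are the human DEAD-box and DEAH-box RNA helicases that carry a DDX or DHX symbol. They were taken from the deposited gene table as the rows annotated as protein coding whose gene name is DDX or DHX followed by a digit, leaving out DDX11, which is a DNA helicase. This rule uses names only and no measured value, and it found 54 genes among 58735 genes of the table, 19951 of them protein coding. The samples are KHM-5M cells, a thyroid cancer cell line, kept for 24 h with YK-4-279, a small molecule known as an inhibitor of ETS transcription factors, and profiled by bulk RNA-seq to find the genes and pathways that respond. There were 3 groups of 3 samples, namely cells with the solvent DMSO as control, cells with 0.3 μM and cells with 1 μM of YK-4-279. All 9 samples come from 1 cell line at 1 time point, so the line's own mutations are shared by the treated and the control groups and no other cell line stands behind the values. The study's methods call the replicates biological but give fewer of them than the labels, which number the samples of a group 1 to 3 without saying that they were separate cultures, so p-values measure only the spread between these samples, which may in part be technical.

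RNA helicases of these families use ATP to open short RNA duplexes, to strip proteins from RNA or to clamp onto it, and nearly every step in the life of an RNA has its own member. DEAH-box proteins, switched on by partners with a G-patch domain, drive the rearrangements of the spliceosome and of pre-ribosomes, whereas DEAD-box proteins act in splicing, ribosome assembly, mRNA export, translation and decay. RIG-I (DDX58) and its relative LGP2 (DHX58) belong to a related branch that senses viral RNA in the cytoplasm. YK-4-279 was introduced as a compound that keeps the ETS fusion protein of Ewing sarcoma from binding RNA helicase A (DHX9), and DDX5 is a further helicase of that complex, so the helicases are of interest both as the fusion protein's reported partners and as transcripts that may respond to the compound.

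Libraries were of even depth, with 16903251 to 18238884 counts each, and a count of 0 allows up to 0.164 to 0.177 CPM (the count of a gene over the size of its library) in a library (3 counts of the total, counting error only). The helicases together took 0.458% to 0.494% of the counts in DMSO, 0.445% to 0.466% at 0.3 μM and 0.446% to 0.482% at 1 μM. Of the thyroid markers, PAX8 was well expressed (21.6 to 27.7 FPKM over the 9 samples) and FOXE1 was low (0.110 to 0.567 FPKM), whereas NKX2-1, TG and TSHR were at or near 0. The epithelial keratins KRT8 and KRT18 were high, at 183 to 204 and 125 to 141 FPKM, with EPCAM at 2.06 to 2.86 FPKM and CDH1 near 0. The fibroblast list had COL1A1 at 32.5 to 56.4 FPKM and COL1A2 near 0, and the blood marker PTPRC and the endothelial marker PECAM1 were at or near 0.

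CPM values below are scaled by library size with TMM factors and compare 1 gene between samples, whereas the authors' FPKM values are divided by gene length and were used to compare levels between genes. In DMSO the 5 helicase genes with the highest level were DDX17 at 67.5 ± 2.4 FPKM (SD, n = 3), DDX5 at 59.4 ± 4.0, DDX21 at 43.1 ± 3.9, DHX9 at 41.8 ± 2.2 and DDX54 at 29.9 ± 2.0. The neighbours DDX21 and DHX9 lay within 1 SD of each other, as did DDX54 and DDX50 (29.7 ± 2.4 FPKM), and their order is not resolved. At the low end stood DDX19A at 1.43 ± 0.19 FPKM, DHX58 at 1.15 ± 0.04 and DDX47 at 0.808 ± 0.108. The germ line helicases DDX4, DDX25 and DDX53 had 0 to 2 reads per library and were not tested, which leaves 51 of the 54 genes in the tests. DDX43, the remaining gene of the germ line list, was at 0.886 ± 0.253 FPKM. DDX3Y was tested and counted and its values are not given.

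**Figure D1:**
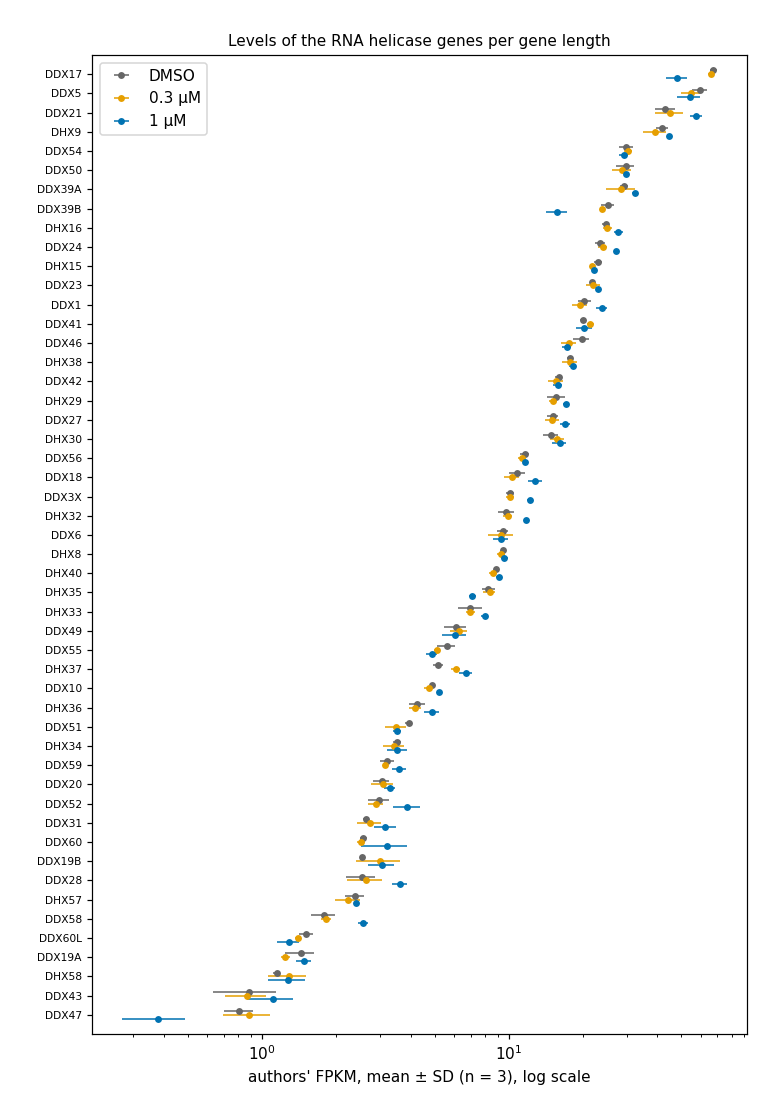
Mean ± SD (n = 3) of the authors' FPKM on a log axis for the helicase genes that reached 0.5 FPKM in a DMSO sample, sorted by their DMSO level, with DMSO in grey, 0.3 μM in orange and 1 μM in blue. Levels run from 67.5 FPKM (DDX17) to 0.808 FPKM (DDX47) in DMSO, and the blue points of DDX17, DDX39B and DDX47 lie to the left of the others.

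The first question was whether the helicases of the complex that the compound is reported to disrupt changed as transcripts. DHX9, which unwinds RNA and DNA duplexes and bridges transcription factors to RNA polymerase, stood at 225, 251 and 239 CPM in the DMSO samples, 229.8, 241 and 197 CPM at 0.3 μM and 249, 248 and 256 CPM at 1 μM. All 9 samples lay between 197 and 256 CPM, and the DMSO and 1 μM samples overlapped. The log2 fold change at 1 μM was 0.07 (95% interval -0.05 to 0.19, edgeR quasi-likelihood test with Benjamini-Hochberg adjusted p = 0.430), which bounds a change of the DHX9 transcript between 0.965 and 1.14 times its DMSO level at this depth. DDX5 (p68), a coregulator of many transcription factors, had 415, 475 and 439 CPM in DMSO and 438, 353 and 408 CPM at 1 μM, with overlapping groups. Its log2 fold change was -0.16 (95% interval -0.31 to 0.00, adjusted p = 0.161 by edgeR).

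DDX17 (p72), the close relative with which DDX5 shares its coregulator and splicing roles, differed. It had 659, 707 and 675 CPM in DMSO, 669, 680.1 and 645 CPM at 0.3 μM and 532, 439 and 469 CPM at 1 μM. Every 1 μM sample lay below every sample of the other groups, and the 0.3 μM samples overlapped the controls. At 1 μM DDX17 fell by 0.51 on the log2 scale (SE 0.066), to 0.703 times its DMSO level (95% interval 0.638 to 0.775, edgeR adjusted p = 0.000188). In bulk RNA, fewer cells of a kind and less RNA per cell cannot be told apart, here and in every comparison that follows.

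**Figure D2:**
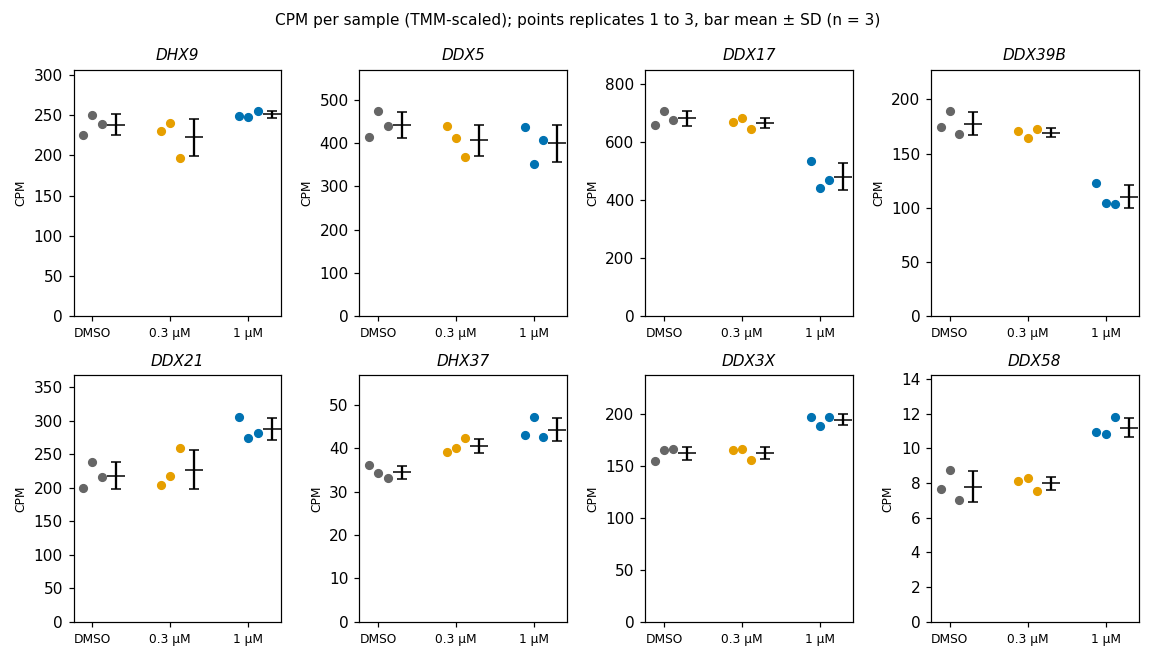
CPM per sample of 8 helicase genes (axes from 0), with DMSO in grey, 0.3 μM in orange, 1 μM in blue and the mean ± SD (n = 3) as a black bar. DHX9 and DDX5 overlap between DMSO and 1 μM, the 1 μM samples of DDX17 and DDX39B lie below the other groups and those of DDX21, DHX37, DDX3X and DDX58 above them.

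At 1 μM against DMSO, 10 of the 51 tested helicase genes rose and 5 fell at an adjusted p under 0.05 in the edgeR quasi-likelihood test, and 36 did not pass. Of the 12900 protein-coding genes tested, 9.13% were called higher and 8.99% lower, so that 29.4% of the helicase genes and 18.1% of all protein-coding genes passed in either direction. The median log2 fold change was 0.07 over the helicases and 0.01 over the protein-coding genes, and 32 helicases had a positive value and 19 a negative one. Only DDX47 and DDX39B passed with a change of more than 1.5-fold, both lower, while 2.36% of the protein-coding genes were called lower and 1.56% higher at that size. For the 15 genes called, the 1 μM and DMSO samples did not overlap. These genes were picked by a test on the same samples, so this is no separate support. The groups did not overlap either for DDX10, DDX19B, DDX23, DDX27, DDX31, DDX39A, DDX51, DDX59, DHX15, DHX16 and DHX36, which were not called. The share over all genes was not counted. The calls of DDX47, DDX39B, DDX17, DDX3X, DHX37 and DDX21 held whichever 1 of the 6 samples was left out. The other 9 genes lost the call in at least 1 of 13 alternative analyses, and none of the 15 turned its direction in them. The number called higher was 5 without DMSO replicate 1, 3 without DMSO replicate 3, 4 without 1 μM replicate 1 and 5 without 1 μM replicate 3, and the number called lower was 3 without any one sample other than DMSO replicate 1.

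**Figure D3:**
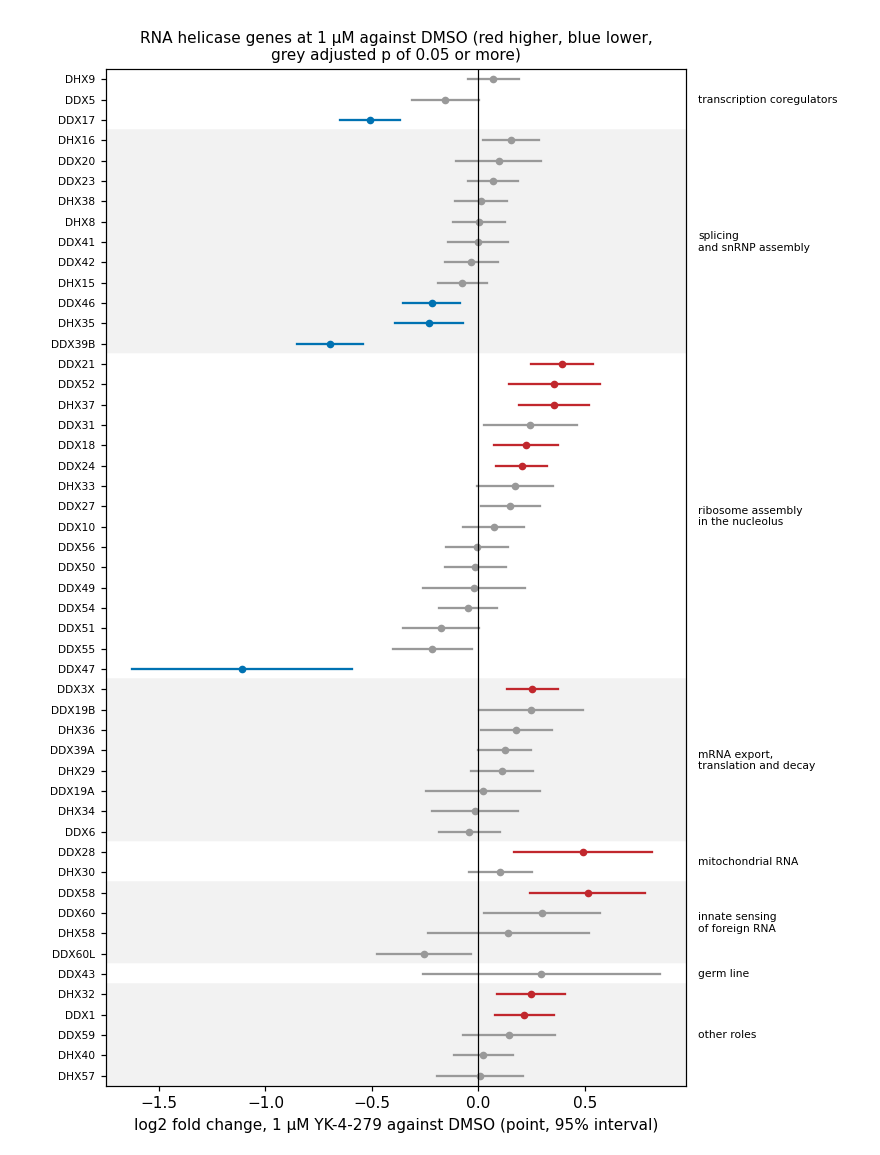
Log2 fold change at 1 μM YK-4-279 against DMSO with its 95% interval for 50 tested helicase genes in 8 role groups, red where called higher, blue where called lower and grey where the adjusted p was 0.05 or more. The splicing group shows 3 blue points, the ribosome assembly group 5 red points and 1 blue, and DHX9 and DDX5 are grey near 0.

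Among 11 helicases of splicing and snRNP assembly, 3 fell, 0 rose and 8 did not pass, with a median log2 fold change of 0.00. DDX39B (UAP56), which helps the branch site to be recognised and then loads export factors onto the finished mRNA, had 175, 189.6 and 169 CPM in DMSO, 171, 164 and 173 CPM at 0.3 μM and 123, 105 and 103 CPM at 1 μM. The 1 μM samples lay well below both other groups, which overlapped each other. DDX39B fell by 0.70 on the log2 scale (SE 0.072), to 0.617 times its DMSO level (95% interval 0.555 to 0.687, edgeR adjusted p = 3.63e-05). Its gene, on the minus strand at chr6:31530219-31542448 (GRCh38), lies inside the read-through gene ATP6V1G2-DDX39B, which had a mean of 0.22 counts, and holds the small nucleolar RNA SNORD117, which was near the limit of detection and lower at 1 μM by 1.71 on the log2 scale (edgeR adjusted p = 0.0211).

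DDX46, which prepares the branch site together with the SF3b complex, had 172, 199 and 179 CPM in DMSO and 163, 150.4 and 161 CPM at 1 μM. The groups were next to each other without overlap, and the log2 fold change was -0.22 (SE 0.064, edgeR adjusted p = 0.0279). DHX35, a helicase of the catalytic spliceosome, had 38.3, 43.2 and 41.7 CPM in DMSO and 36.6, 34.2 and 34.6 CPM at 1 μM, a log2 fold change of -0.23 (SE 0.075, edgeR adjusted p = 0.0474). Both of these genes were among those that the study displayed as lowered in these samples, so their direction here is not independent evidence of it. The study's methods set a cutoff of 1.5-fold with a P under 0.05 from DESeq2. The changes here, to 0.859 and 0.852 times the DMSO level, are smaller than that cutoff. Neither call was firm, since only 1 of the 6 analyses without a single sample kept it and the edgeR adjusted p rose to 0.122 without 1 μM replicate 2 for DDX46 and to 0.154 without 1 μM replicate 3 for DHX35. DDX46 shares 9454 bp of its strand with C5orf24, which had a log2 fold change of 0.10 (adjusted p = 0.323 by edgeR).

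The helicases that remodel the spliceosome step by step did not pass, with values near 0. DDX23, which lets the tri-snRNP join, had a log2 fold change of 0.07 (95% interval -0.05 to 0.19). DHX38, which acts between the splicing steps, was at 0.01 (-0.11 to 0.14) and DHX8, which releases the spliced mRNA, at 0.00 (-0.12 to 0.13). DHX15, which takes the spent spliceosome apart, was at -0.07 (-0.19 to 0.04). The largest positive value of the group was that of DHX16, which triggers the first splicing step, at 0.15 (0.02 to 0.28, edgeR adjusted p = 0.0989). DHX8 overlaps the ETS factor gene ETV4 over 51777 bp on the opposite strand, and the sources used here do not settle whether reads were counted by strand.

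Ribosome assembly helicases held 5 of the 10 genes that rose. Of 16 in this group, 5 were higher, 1 lower and 10 not passed, and the median log2 fold change was 0.11. DDX21, a nucleolar helicase that coordinates rRNA transcription with rRNA processing, had 199, 239 and 217 CPM in DMSO, 204, 217 and 259.9 CPM at 0.3 μM and 306, 274 and 282 CPM at 1 μM. All 1 μM samples were above the other 6. DDX21 rose to 1.31 times its DMSO level (95% interval 1.19 to 1.45, log2 fold change 0.39, SE 0.068, edgeR adjusted p = 0.00156).

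DHX37, which frees the small subunit precursor from its U3 snoRNA, had 36.1, 34.3 and 33.1 CPM in DMSO, 39.2, 40.2 and 42.4 CPM at 0.3 μM and 43.0, 47.4 and 42.5 CPM at 1 μM. Here the 0.3 μM samples lay above all controls and below all 1 μM samples, but DHX37 was not called at 0.3 μM (edgeR adjusted p = 0.995). The log2 fold change at 1 μM was 0.35 (SE 0.077, edgeR adjusted p = 0.00620). DDX52, a small subunit helicase, had 26.4, 32.0 and 27.9 CPM in DMSO and 42.4, 33.6 and 35.0 CPM at 1 μM, a log2 fold change of 0.36 (edgeR adjusted p = 0.0241). The highest DDX52 value was that of 1 μM replicate 1, without which the change was 0.26 with an edgeR adjusted p of 0.119.

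DDX18 and DDX24, which act on the large subunit precursor, had smaller changes of 0.22 and 0.20 on the log2 scale (edgeR adjusted p = 0.0390 and 0.0214). Their calls were kept in 2 and 1 of the 6 analyses without a single sample, and the largest edgeR adjusted p was 0.156 without 1 μM replicate 1 for DDX18 and 0.0995 without DMSO replicate 3 for DDX24. Among the 10 genes that did not pass were DDX10, DDX27, DDX31 and DHX33 with positive values of 0.07 to 0.24 and DDX51 and DDX55 with negative values of -0.17 and -0.22. DDX54, at the top of the 10 by FPKM beside DDX50, was at -0.05 (95% interval -0.19 to 0.09).

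DDX47, a helicase of early pre-rRNA cleavage, had the largest change of all 51 genes and one of the lowest levels. It had 3.49, 4.29 and 4.55 CPM in DMSO, 3.78, 4.11 and 5.59 CPM at 0.3 μM and 1.58, 1.62 and 2.54 CPM at 1 μM, which are 28 to 77 reads per DMSO or 1 μM library. The 1 μM samples were below all others, and the log2 fold change was -1.11 (95% interval -1.63 to -0.59, edgeR adjusted p = 0.00622). Nearly all of DDX47 (chr12:12813316-12829981, plus strand), 16660 bp, lies within the annotated span of APOLD1 on the same strand, so reads there could be given to either gene or to none. APOLD1 had 17.4 to 23.3 CPM in the DMSO and 1 μM samples, with a log2 fold change of -0.11 (edgeR adjusted p = 0.529).

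Of 8 helicases of mRNA export, translation and decay, 1 rose and 7 did not pass, and the median was 0.12. The gene that rose was DDX3X, which helps ribosomes to start on mRNAs with structured leaders. It had 154, 165 and 166 CPM in DMSO, 165, 166 and 155 CPM at 0.3 μM and 197, 188 and 197 CPM at 1 μM, so that the 1 μM samples stood above 6 samples that overlapped. DDX3X rose by 0.25 on the log2 scale (SE 0.055, edgeR adjusted p = 0.00640), and its near-identical copy DDX3Y can share reads with it. DDX39A, the export helicase most like DDX39B, was at 0.12 (95% interval 0.00 to 0.25), and the quadruplex-resolving DHX36 at 0.18 (0.01 to 0.34). DDX6, which represses translation and promotes decapping, was at -0.04 (-0.19 to 0.10). The pore export helicases DDX19B and DDX19A, which are close copies and may share reads, were at 0.25 and 0.02.

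Of the 2 mitochondrial helicases, DDX28, which assembles the large mitochondrial ribosomal subunit, rose. It had 6.40, 5.12 and 5.08 CPM in DMSO and 7.47, 7.57 and 8.46 CPM at 1 μM, without overlap, and a log2 fold change of 0.49 (SE 0.151, edgeR adjusted p = 0.0367). The call was kept in 1 of the 6 analyses without a single sample, and its edgeR adjusted p reached 0.125 without 1 μM replicate 3. DDX28 lies inside DUS2 on the opposite strand over its full 2169 bp. DHX30 was at 0.10 (95% interval -0.05 to 0.25). Among the 6 genes with other roles, DDX1, a subunit of the tRNA ligase complex, and DHX32, whose function is less well known, rose by 0.22 and 0.25 on the log2 scale (edgeR adjusted p = 0.0338 and 0.0341). Without a single sample these calls were kept in 2 and 1 of 6 analyses, with the largest edgeR adjusted p of 0.129 without 1 μM replicate 1 for DDX1 and 0.110 without DMSO replicate 1 for DHX32.

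The innate sensing group held 4 genes, of which 1 rose and 3 did not pass, with a median of 0.22. DDX58, the RIG-I sensor of RNA with a triphosphate end, had 7.63, 8.75 and 7.03 CPM in DMSO, 8.13, 8.27 and 7.55 CPM at 0.3 μM and 11.0, 10.8 and 11.8 CPM at 1 μM. The 1 μM samples were above the other 6, and DDX58 rose to 1.43 times its DMSO level (95% interval 1.18 to 1.72, edgeR adjusted p = 0.0125). Its edgeR adjusted p was 0.0632 without DMSO replicate 3 and 0.0530 without 1 μM replicate 3. DHX58 (LGP2), which modulates that sensor, had 4.54, 4.29 and 4.49 CPM in DMSO and 5.51, 5.26 and 3.96 CPM at 1 μM, a log2 fold change of 0.14 whose 95% interval of -0.24 to 0.52 is wide.

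DDX60, an interferon-induced helicase, had 17.6, 16.9 and 17.9 CPM in DMSO and 20.5, 26.7 and 17.8 CPM at 1 μM. The highest value came from 1 μM replicate 2 alone, and with it left out the log2 fold change went from 0.30 (edgeR adjusted p = 0.121) to 0.12 (adjusted p = 0.506 by edgeR). Its neighbour and relative DDX60L had 17.2, 19.5 and 19.0 CPM in DMSO and 17.2, 14.0 and 15.6 CPM at 1 μM, a value of opposite sign at -0.25 (edgeR adjusted p = 0.106), again with its extreme in 1 μM replicate 2. The 4 values of the group thus had both signs.

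At 0.3 μM against DMSO, 0 of the 51 helicase genes passed, as did 0.0% of 12907 protein-coding genes in either direction (0.0% higher, 0.0% lower) by edgeR. DESeq2 called 0 helicase genes too. At an unadjusted p under 0.05 from edgeR there were 2 helicase genes, DHX37 at a log2 fold change of 0.23 and DDX46 at -0.18 (each with an adjusted p of 0.995 by edgeR). The 51 values ran from -0.21 for DDX19A to 0.24 for DDX19B, with a median of -0.03 against 0.01 over the protein-coding genes. DHX37 was the one gene, of the 50 plotted, whose 3 samples at 0.3 μM did not overlap those in DMSO. For any single gene such a separation has a two-sided exact permutation p of 0.1, so 1 gene among 50 is not evidence of a response. The share over all genes was not counted. For the genes that led at 1 μM, the values at 0.3 μM were -0.03 for DDX17, -0.07 for DDX39B, 0.06 for DDX21, 0.00 for DDX3X and 0.03 for DDX58.

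In the direct comparison of 1 μM with 0.3 μM, which does not use the DMSO samples, 8 helicase genes were higher, 3 lower and 40 not passed, beside 6.93% and 6.36% of 12905 protein-coding genes. The 3 lower genes were DDX47, DDX39B and DDX17, with log2 differences of -1.23, -0.61 and -0.46 (edgeR adjusted p = 0.00423, 4.9e-05 and 0.000263). The 8 higher genes were DDX58 at 0.49, DDX52 at 0.42, DDX21 at 0.35, DDX18 at 0.31, DDX1 at 0.29, DDX3X at 0.26, DHX32 at 0.24 and DDX24 at 0.18. Without 1 μM replicate 1, 3 helicase genes were called higher. DHX37, called against DMSO, was not called here (0.13, edgeR adjusted p = 0.293), and neither was DDX46 (-0.03, edgeR adjusted p = 0.810). DHX9 was higher at 1 μM than at 0.3 μM in every sample, at 0.18 on the log2 scale, without passing the test (edgeR adjusted p = 0.0943). The comparisons of 0.3 μM and of 1 μM with DMSO share the DMSO samples, and this one shares its samples with both.

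**Figure D4:**
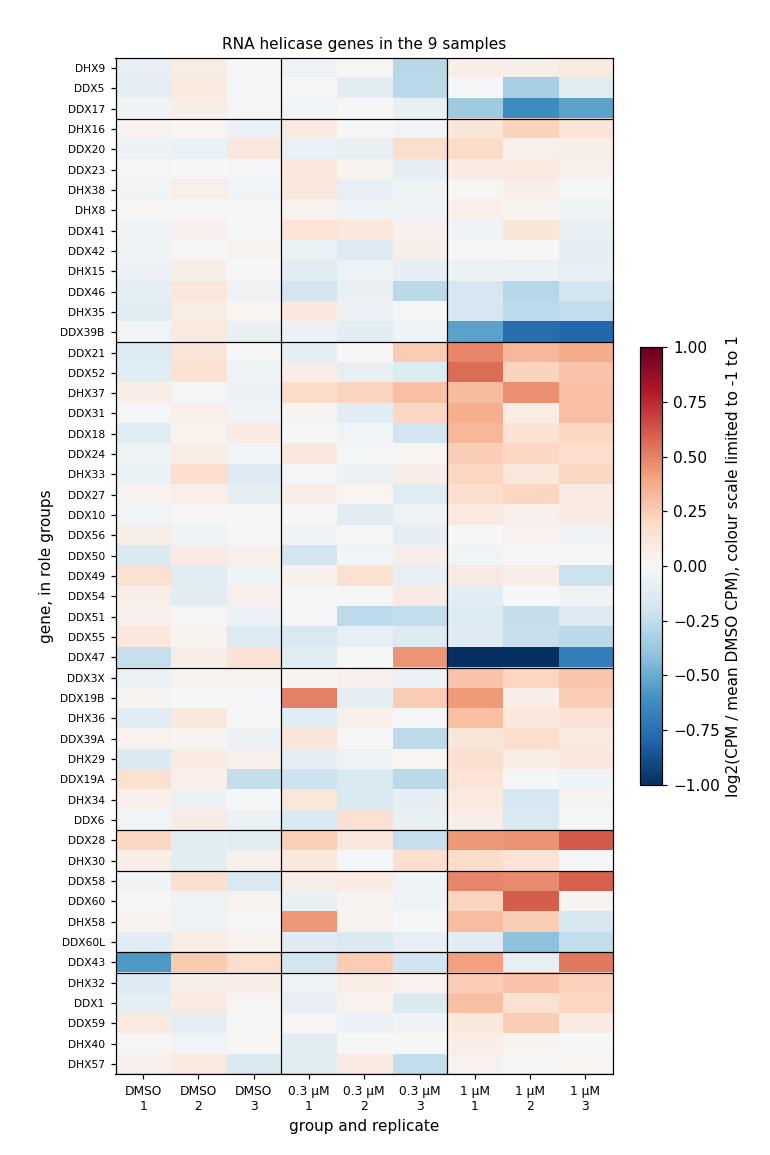
Colour gives log2 of each sample's CPM over the mean DMSO CPM (limited to -1 to 1) for 50 tested helicase genes in rows, in role groups separated by lines, and the 9 samples in columns. The 1 μM columns show blue for DDX17, DDX39B and DDX47 and red for DDX21, DHX37 and DDX58, and the 0.3 μM columns are pale apart from single samples of a few low-count genes.

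Related genes were also compared within each sample, which removes the scaling of the library. The log2 ratio of DDX5 to DDX17 was -0.67, -0.57 and -0.62 in DMSO and -0.60, -0.73 and -0.81 at 0.3 μM. At 1 μM it was -0.28, -0.32 and -0.20, so DDX17 stayed the larger count of the pair with a narrower gap. These counts are not divided by gene length and do not rank the levels of 2 genes. By mean FPKM, DDX17 was above DDX5 in DMSO (67.5 and 59.4). At 1 μM DDX17 was at 48.0 ± 4.7 FPKM and DDX5 at 54.0 ± 5.7. The log2 ratio of DDX39A to DDX39B was -0.59, -0.72 and -0.63 in DMSO and 0.01, 0.29 and 0.24 at 1 μM. The count of DDX39B was thus the larger one in DMSO and the smaller one in all 3 samples at 1 μM. By mean FPKM, DDX39A was the higher gene in both groups. It was at 29.3 beside 25.1 for DDX39B in DMSO, and at 32.3 beside 15.7 at 1 μM. The mean ratio moved by 0.35 and 0.82 on the log2 scale in these pairs, by 0.41 for the nucleolar pair DDX21 and DDX50 and by 0.54 for DDX60 and DDX60L. The 1 μM ratios of DDX60 to DDX60L were 0.25, 0.93 and 0.19, so that move leaned on replicate 2, and neither gene was called. In each of these 4 pairs the groups did not overlap, and the two-sided exact permutation p was 0.1, the smallest that 3 samples against 3 allow. The pairs of DDX17, DDX39B and DDX21 each set a gene already called in these samples against one that was not. The separation of their ratios is therefore no separate support, and other gene pairs were not counted. In the fifth pair compared, DDX19A and DDX19B, the ratio moved by -0.21 and the groups overlapped (exact permutation p = 0.2). A ratio shows that the members of a pair changed unequally and not which of them did.

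**Figure D5:**
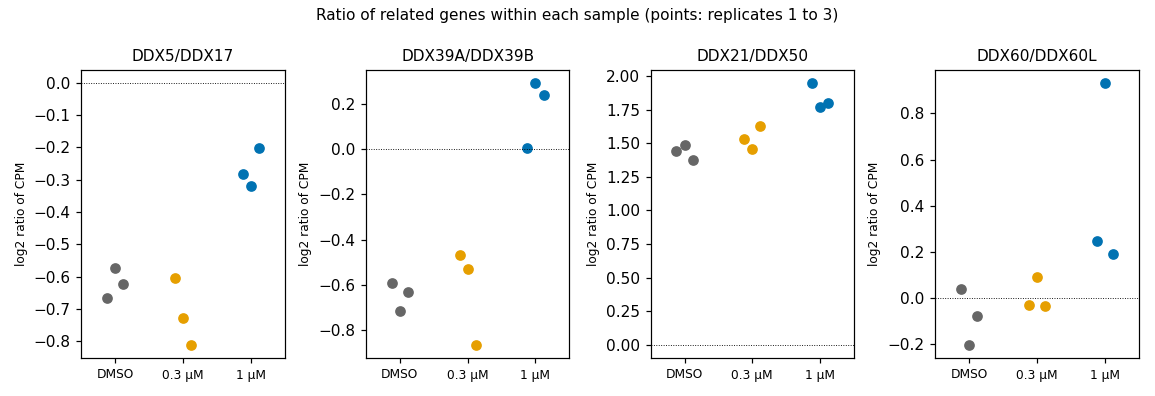
Log2 ratio of the CPM of related helicase genes within each of the 9 samples, in DMSO (grey), 0.3 μM (orange) and 1 μM (blue), with a dotted line at equal counts where it falls in the range. The 1 μM points lie above the DMSO points in all 4 pairs, and for DDX39A over DDX39B they cross from below to above the line. Counts are not divided by gene length, so the line does not mark equal levels.

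The partners and neighbours of these helicases were counted from hand-written lists. Of 26 other ribosome assembly factors, 13 rose at 1 μM, 0 fell and 13 did not pass, with a median log2 fold change of 0.20 beside 0.01 over the protein-coding genes, of which 9.13% were called higher and 8.99% lower. This list was led by RRS1 (0.63) and POLR1B (0.57), a subunit of RNA polymerase I. Of 24 core spliceosome proteins, 2 rose and 2 fell, with a median of 0.01, near those shares in either direction. Of 22 G-patch proteins, the class that switches on DEAH-box helicases, 3 rose and 3 fell, with RBM5 at -0.55 and SUGP2 at -0.54 as the largest falls (edgeR adjusted p = 8.20e-05 and 3.19e-05). The largest positive value of that list was 0.28. Of 17 tested genes of the RIG-I pathway, 6 rose and 0 fell, with a median of 0.23, led by the interferon-inducible IFIT2 (0.73) and IFIT3 (0.72), while IFNB1, the interferon gene itself, was at or below 0.164 CPM in every sample and was not tested. Of 14 partners in the cap-binding and exon junction complexes, 2 rose and 2 fell. Of 4 tested DEAD- or DEAH-box proteins under other symbols, 1 fell, namely YTHDC2 (-0.28, edgeR adjusted p = 0.0103). At 0.3 μM none of these lists held a called gene, and neither did all 12907 protein-coding genes tested by edgeR.

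Since YK-4-279 is described as an inhibitor of ETS factors, the promoters of the helicase genes were searched for the ETS core CCGGAAG, for the E-box CACGTG and for the interferon-response core (TTTC, any 2 bases, TTTC), on both strands, from 250 bases before to 50 bases after each start listed by RefSeq (GRCh38.p14). Promoters were found for 49 of the 54 genes, 65 starts in all, and a gene was counted when any of its starts held the motif. The ETS core stood at 23 of the 49 genes (46.9%). It stood at 22.0% of 10455 tested protein-coding genes with a listed promoter and at 12.2% of all 27305 genes listed. These sets are not matched, since starts per gene were not compared between them and the 49 include untested genes such as DDX25. By response, the ETS core was found at 3 of 8 helicase genes that rose, 3 of 5 that fell and 17 of 33 that did not pass. Over the protein-coding genes it was at 21.5% of those that rose, 23.3% of those that fell and 22.0% of those that did not pass. The E-box was at 10 of the 49 genes (20.4%, beside 12.5% of the tested protein-coding genes) and the interferon-response core at 3 (6.12%, beside 4.01%). The windows printed next show the ETS core, in capitals, upstream of genes that fell (DDX39B, DDX46), that rose (DDX21, DDX1) and that did not pass (DDX5), followed by an interferon-response core in capitals upstream of DDX60. Each is written 5′ to 3′ on the strand of its gene and ends before the listed start.
DDX39B, chr6:31542004-31542042, minus strand: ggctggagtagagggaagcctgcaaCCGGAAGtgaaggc
DDX46, chr5:134758707-134758763, plus strand: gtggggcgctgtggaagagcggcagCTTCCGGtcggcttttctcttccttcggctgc
DDX21, chr10:68956085-68956141, plus strand: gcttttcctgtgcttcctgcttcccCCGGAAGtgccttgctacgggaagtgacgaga
DDX1, chr2:15591825-15591867, plus strand: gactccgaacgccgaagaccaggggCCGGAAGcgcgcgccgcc
DDX5, chr17:64506729-64506785, minus strand: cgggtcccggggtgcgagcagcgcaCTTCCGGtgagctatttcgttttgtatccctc
DDX60, chr4:168318771-168318830, minus strand: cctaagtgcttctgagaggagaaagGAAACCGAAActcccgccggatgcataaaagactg

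The DDX39B, DDX21 and DDX1 windows hold the ETS core as spelled, and those of DDX46 and DDX5 hold its reverse complement. The DDX60 window holds the reverse complement of the interferon-response core. At 1 μM against DMSO, DDX39B and DDX46 were lower, at -0.70 and -0.22 on the log2 scale. DDX21 and DDX1 were higher, at 0.39 and 0.22. The ETS core windows were picked from genes of either direction, so their mix of directions is not a result. DDX5 and DDX60 did not pass the test. A match describes the letters of the window and not the binding of a factor.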

How the data were processed

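Bulk RNA-seq of 9 KHM-5M samples was analysed from the table that the authors deposited for the series. Its counts are whole numbers of reads per gene, which the authors deposited without normalization after alignment to GRCh38 with HISAT2 (version 2.0.5 in the submitters' processing notes). The study's methods name HTseq for counting and the submitters' processing notes name featureCounts 1.5.0-p3, and the library kit is named differently in the labels and the methods, so that use of strand in counting is not settled. The methods also speak of fewer biological replicates than the 3 samples per group in the labels, which were followed here. The authors' FPKM values divide each count by the deposited gene length and the library size. The table also holds fold changes, p-values and adjusted p-values of the authors' own DESeq2 comparisons, which were not used.

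Each sample was assigned to its group from the GEO labels. Genes were kept by filterByExpr (minimum count 10) among the 6 samples compared, scaled by TMM and tested with the quasi-likelihood F test of edgeR 4.0.16 (R 4.3.3), and the Benjamini-Hochberg adjustment took in every gene tested. Called means an adjusted p under 0.05. Alternatives were DESeq2 1.42.0, RLE, upper-quartile and library-total scaling, no filter, all 9 samples in one fit, leaving out samples singly, a block for the replicate number, the unadjusted p and a 2-fold cutoff. Ratios of related genes were compared by a two-sided exact permutation test over samples. In simulated counts for 1 μM against DMSO, 28 of 200 genes changed by 0.3 on the log2 scale were recovered among 15367 genes, 133 of 200 at 0.6 (15374 genes) and 164 of 200 at 1 (15348 genes). The simulation changed far fewer genes than were called in the data, so these shares do not carry over to the data. Replicates of a group gave chi-square values per degree of freedom of 3.20 to 10.7, above the sampling noise, so none was a repeat of another. Gene positions and overlaps were taken from the deposited annotation, whose 54 helicase IDs were all found in GENCODE v44 (GRCh38) at overlapping positions, and promoter sequences came from RefSeq, with 34 of 34 windows equal to the genome. Python 3.11.15, pandas 2.3.3 and matplotlib 3.10.9 served for the summaries and plots.

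The gene family, its role lists, the partner lists and the marker lists were chosen with earlier results of these data known. Genes were named by rule, namely DHX9 and DDX5, DDX46 and DHX35, the innate sensing list, up to 4 of the largest passing rises and falls per role list, every gene past 1.5-fold, the 5 with the highest FPKM in DMSO, those not tested, and up to 2 rises and falls per partner list. This last rule was not filled for every list. The rises among the G-patch proteins went unnamed, as did the changes in the core spliceosome list and the cap-binding and exon junction list. Other members were named as examples after their values were seen.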

Additional observations from a re-analysis of the deposited data

How the results depend on the processing

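At 1 μM against DMSO, the number of helicase genes called higher (10) was 8 to 11 and the number called lower (5) was 4 or 5 under DESeq2, the 3 other scalings, no filter and all 9 samples in one fit. The replicate number as a block gave 5 higher and 3 lower. Leaving out one sample at a time gave 3 to 11 higher and 3 to 6 lower, and the unadjusted p gave 17 and 8. Of the 2 genes past 1.5-fold, 1 was past 2-fold, and without one sample there were 2 to 3. For 0.3 μM against DMSO the unadjusted p gave 1 higher and 1 lower in place of 0. For 1 μM against 0.3 μM, leaving out one sample gave 3 to 8 higher (8 with all samples) and 3 lower each time, and the unadjusted p gave 17 higher and 5 lower. DDX18 and DDX1 lost their calls under library totals and upper-quartile factors, DDX28 under DESeq2, and DHX35 under DESeq2, RLE, no filter and all 9 samples in one fit, and the cause was not tested. The split of all protein-coding calls at 1 μM was 50.4% higher by TMM, 44.7% by upper-quartile factors and 56.3% by DESeq2. Deviations of same-numbered samples of different groups had correlations of -0.07 to 0.14 over genes. For 0.3 μM against DMSO they were 0.14, 0.11 and 0.04. The number was treated as a name only, and a batch shared by same-numbered samples was not tested. In simulated counts for this comparison, in which 200 genes were changed, 14% of changes of 0.3 on the log2 scale were recovered. In the data 2752 of 15617 genes were called, which makes the adjustment less strict, so this share does not carry over to them. Helicase genes with smaller changes were called, such as DDX24 at 0.20. With 3 samples a group, small changes can still be missed.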
